A study of Rattus norvegicus with 9 samples.

Results

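Collagen genes were examined in neural stem cells (NSCs) that differentiated with or without exosomes of bone marrow mesenchymal stem cells (BMSC-Exos). The members were all 44 rows whose symbol reads Col, a number, a and a number, of 23953 genes in the count table. They comprised 11 fibrillar, 8 basement membrane, 9 FACIT, 4 transmembrane and 6 beaded filament (collagen VI) genes, and 6 others. The NSCs came from neonatal rat spinal cord, and all were kept in differentiation medium, which contained serum. The Con group received the medium alone. The Exo group received in addition BMSC-Exos, which according to the study's methods came from BMSCs that carried an empty lentiviral vector, and the pLV-Exo-Wnt5a group received exosomes of BMSCs transduced with a lentiviral vector for Wnt5a. Each group had 3 libraries. No source says that they were separate cultures, so the p-values measure the spread between these libraries, which may be technical. The rows are named by symbols and NCBI numbers of mouse genes, whereas the cells are labelled rat.

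Collagens are extracellular proteins in which 3 chains wind into a triple helix. Fibrillar collagens build the fibrils of connective tissue, type IV collagen forms the network of basement membranes, FACIT collagens sit on the surface of fibrils or in matrix zones next to cells, and transmembrane collagens are anchored in the plasma membrane. In the central nervous system, fibrillar collagen is largely restricted to the meninges and vessel walls, while basement membranes line the vessels and the surface under the astrocyte endfeet.

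Total counts were between 32765138 and 40427647 per library, so that 3 counts corresponded to between 0.0727 and 0.0913 CPM (counts relative to a fixed library size, scaled by TMM over the 9 libraries). The 6 NSC markers were all detected, at a summed 2532 to 3851 CPM, beside markers of astrocytes (3672 to 5669 CPM), neurons (2411 to 3122 CPM) and the oligodendrocyte lineage (1027 to 1242 CPM). Con replicate 1 was uneven in the neuronal list: 4 of its 6 genes (Dcx, Map2, Snap25 and Stmn2) were lowest of all libraries there, while Tubb3, at 1999.6 CPM, was exceeded in only 1 other library and the list summed to 2738 CPM, above the other Con libraries. Where leaving this library out changed a call of a collagen or of a role gene named below, the value without it is given. Bulk libraries cannot tell fewer cells of a type from less RNA per cell.

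The collagens took a small and similar part of each library. Their counts summed to between 15724 and 22117 per library, or 0.0467% to 0.0547% of all counts. The summed level was 516, 498 and 478 CPM in the Con libraries, 523, 460 and 488 CPM in the Exo libraries, and 520, 477 and 536 CPM in the pLV-Exo-Wnt5a libraries. The 3 groups overlapped in this sum.

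FACIT genes held the largest share of collagen counts in every library, between 42.1% and 45.8%. Basement membrane genes held 25.7% to 30.4% and fibrillar genes 16.6% to 19.4%. These shares come from counts that were not divided by transcript length, so they describe reads and not molecules. Summed over the class, FACIT genes reached 217 ± 16.4, 216 ± 20.5 and 221 ± 15.1 CPM (SD, n = 3 each) for Con, Exo and pLV-Exo-Wnt5a. Fibrillar genes summed to 92.9 ± 3.48, 87.0 ± 5.56 and 87.9 ± 8.99 CPM in the same order. The basement membrane sum was 133, 131 and 128 CPM in the Con libraries, 138, 125 and 137 CPM in the Exo libraries, and 158, 133 and 154 CPM in the pLV-Exo-Wnt5a libraries. Of the pLV-Exo-Wnt5a libraries, replicates 1 and 3 were above all Con and Exo libraries in this sum and replicate 2 lay among them.

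**Figure D1:**
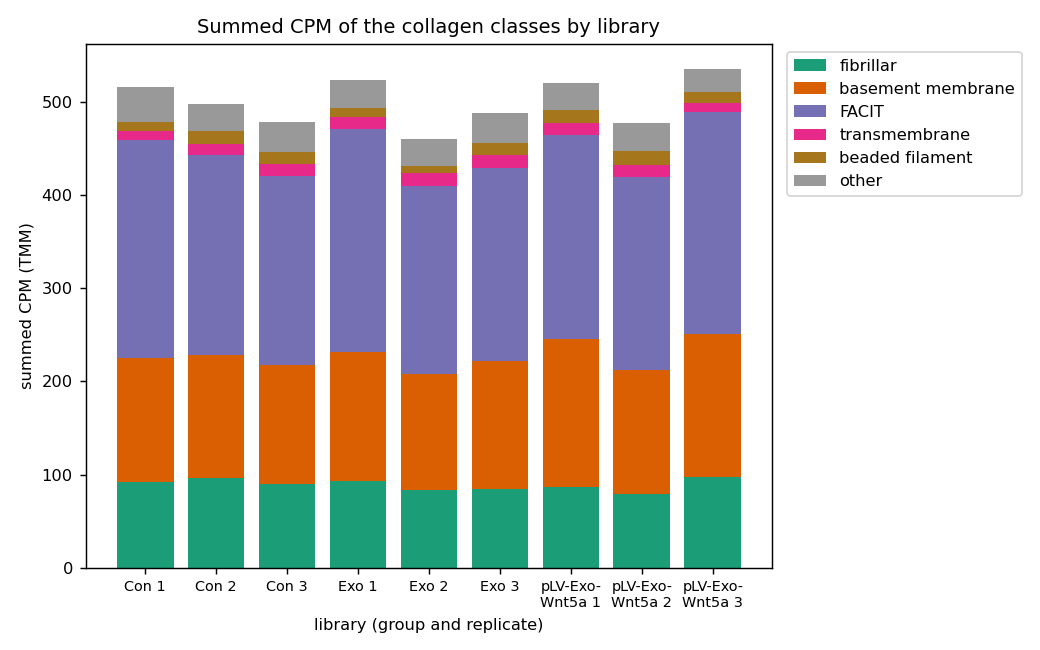
Stacked bars give the summed CPM (TMM) of each collagen class (vertical axis) in each of the 9 libraries (horizontal axis). The totals lie between 460 and 536 CPM, and FACIT genes form the largest segment in every bar.

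A single gene, Col9a3, gave 26.0% of all collagen counts. It encodes a chain of collagen IX, a FACIT collagen best known from cartilage, and stood at 140, 120 and 116 CPM in the Con libraries, 157, 131 and 132 CPM in the Exo libraries, and 122, 112 and 139 CPM in the pLV-Exo-Wnt5a libraries. The groups overlapped. Its partner chains gave few counts beside it: the ratio of Col9a1 to Col9a3 counts was between 0.0605 and 0.0971 over the 9 libraries, and that of Col9a2 to Col9a3 between 0.0543 and 0.0912. The latter was higher in all Con libraries than in any other, with p = 0.1 in the 2-sided exact permutation test against either group (adjusted 0.343). Next in share came Col4a5 (10.4%) and Col16a1 (9.36%), followed by Col4a2 (6.67%) and Col4a1 (6.03%). Col26a1, which falls in none of the larger classes, gave 5.67% and stood at 30.6 ± 4.09, 28.2 ± 2.14 and 26.0 ± 2.75 CPM (SD, n = 3 each) for Con, Exo and pLV-Exo-Wnt5a. Col7a1, the anchoring fibril collagen, was lower, at 2.21 ± 0.564, 1.55 ± 0.286 and 1.90 ± 0.373 CPM, with overlapping groups (log2FC -0.52 between Exo and Con, SE 0.29, Q = 0.399 from edgeR, and -0.70 without Con replicate 2, where the looser rule called it). The chains of collagen I and III, the main collagens of connective tissue, gave under a single percent each: 0.446% for Col1a1, 0.488% for Col1a2 and 0.614% for Col3a1.

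Of the 44 genes, 35 passed the filter on low counts in at least 1 comparison. The 9 that did not were Col10a1, Col13a1, Col17a1, Col24a1, Col28a1, Col6a5, Col6a6, Col8a1 and Col8a2. They reached at most 12 counts in any library, with a median of 2, and were left untested. With no filter, the looser rule called Col8a1 between pLV-Exo-Wnt5a and Exo (Q = 0.396 from edgeR), at 10, 6 and 1 counts in the Exo libraries and 0, 0 and 1 in the pLV-Exo-Wnt5a libraries, so the call rests on very few reads. Its partner chain Col8a2 had 8, 4 and 8 counts in the Con libraries, 1 in each Exo library, and 0, 3 and 10 in the pLV-Exo-Wnt5a libraries, which overlap both other groups. Col4a4 was not tested between Exo and Con, nor Col19a1 between pLV-Exo-Wnt5a and Con. Among the transmembrane genes, only Col23a1 and Col25a1 were therefore tested.

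Markers of the cell types that make most collagen in other tissues were mixed. Of 8 fibroblast markers, Lum, Dpt and Twist1 had at most 10 counts in any library, while Pdpn and Fbln1 averaged 55.7 and 29.0 CPM and made most of the list's sum of 79.2 to 118 CPM, and Prrx1 and Dcn averaged 6.76 and 3.14 CPM. Of 6 mural markers, Kcnj8 and Abcc9 had at most 10 counts and Pdgfrb averaged 12.8 CPM, and of 5 endothelial markers with a row, Cdh5, Tie1 and Cldn5 had at most 10 counts and Kdr averaged 5.53 CPM. The mural list summed to 16.6 to 22.8 CPM for Con, 12.4 to 12.9 CPM for Exo and 14.5 to 15.5 CPM for pLV-Exo-Wnt5a. The endothelial list ranged from 4.21 to 8.27 CPM.

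Each pair of groups was tested by edgeR's quasi-likelihood method. A gene was called a DEG at Q (the Benjamini-Hochberg adjusted p over all genes tested) under 0.05 if its fold change also lay above 2 or below 0.5, and called by a looser rule at an unadjusted p under 0.05 with an absolute log2FC above 0.58. Both rules are those of the study. The comparisons share libraries, so that a low value in the Exo group enters 2 of them with opposite signs.

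Comparing Exo with Con asks what BMSC-Exos changed. None of the 34 tested collagen genes was a DEG, with edgeR or with DESeq2, against 0.00664% of all 15070 genes with edgeR and 0.226% with DESeq2. By the looser rule 3 were called, or 8.82% against 4.47% of all genes in either direction. They were Col6a1, Col14a1 and Col22a1, all lower in the Exo group. DESeq2 called 1 of the 34 by the looser rule, Col6a1 (against 4.13% of all genes), and 1 at Q under 0.05, Col4a6 (against 1.37%). At an unadjusted p under 0.05 there were 5 genes, or 14.7%, against 14.9% of all genes. The median log2FC was -0.033, against 0.00 over all genes, with 16 genes above 0 and 18 below, where 50.3% of all genes were above 0.

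The 3 Exo libraries lay wholly below the 3 Con libraries for 7 of 34 genes (20.6%, against 12.4% of all genes), and wholly above for 3 (8.82%, against 10.9%). The 7 were the fibrillar Col5a1 and Col11a2, the FACIT genes Col14a1, Col16a1 and Col22a1, the basement membrane gene Col4a6, and Col6a1. The 3 were Col3a1, Col19a1 and Col25a1. Col19a1 passed the filter on low counts only through the Exo group, where it is high, so its part in the latter share is no support, and without it 2 genes lay above.

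Col14a1 encodes a FACIT collagen that binds fibrils. It had 53, 36 and 38 counts in the Con libraries and 21, 17 and 36 counts in the Exo libraries. The log2FC was -0.89 (SE, standard error, 0.40, Q = 0.334, edgeR's quasi-likelihood test), and the looser call was lost with DESeq2 and in 4 of the 6 fits that left out a library. Col22a1, a FACIT collagen of tissue junctions, had 112, 85 and 75 counts in the Con libraries and 48, 66 and 77 counts in the Exo libraries, a log2FC of -0.62 (SE 0.27, Q = 0.323 from edgeR), and its call was lost with DESeq2 and in 5 of those 6 fits. With the replicate number as a block both calls were lost, and that of Col14a1 also in the joint fit of all 9 libraries. Con replicate 3 and Exo replicate 3 were nearly level in counts, and the groups were apart only after scaling by depth. Without Con replicate 1, the looser rule called 1 collagen gene in place of 3, Col6a1 (log2FC -0.82), with Col14a1 at -0.74 and Col22a1 at -0.48.

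Comparing pLV-Exo-Wnt5a with Exo asks what the overexpression of Wnt5a in the donor BMSCs added. Here 2 of the 35 tested collagen genes passed Q under 0.05 (5.71%, against 0.436% of all genes in either direction), Col4a6 and Col16a1. Both were higher in the pLV-Exo-Wnt5a group and neither reached a fold change of 2, so no collagen was a DEG, with edgeR or DESeq2, against 0.159% of all 15132 genes with edgeR and 0.489% with DESeq2. The looser rule called Col4a6, Col6a1 and Col19a1, or 8.57% against 3.49% of all genes in either direction. Col19a1 passed the filter on low counts only through the Exo group, where it is high, so its call and its part in this share are no support, and without it 2 genes were called. DESeq2 called 2 of the 35 by the looser rule, Col4a6 and Col6a1 (against 3.5% of all genes), and 3 at Q under 0.05, these and Col16a1 (against 2.82%). At an unadjusted p under 0.05 there were 7 genes, or 20.0%, against 12% of all genes. The median log2FC was 0.018 against 0.00 over all genes.

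All 3 pLV-Exo-Wnt5a libraries lay above all Exo libraries for 4 genes (11.4%, against 7.5% of all genes), Col4a6, Col6a1, Col12a1 and Col16a1. They lay below for 3 genes (8.57%, against 8.9%), Col3a1, Col19a1 and Col25a1, of which Col19a1 again counts as no support.

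**Figure D2:**
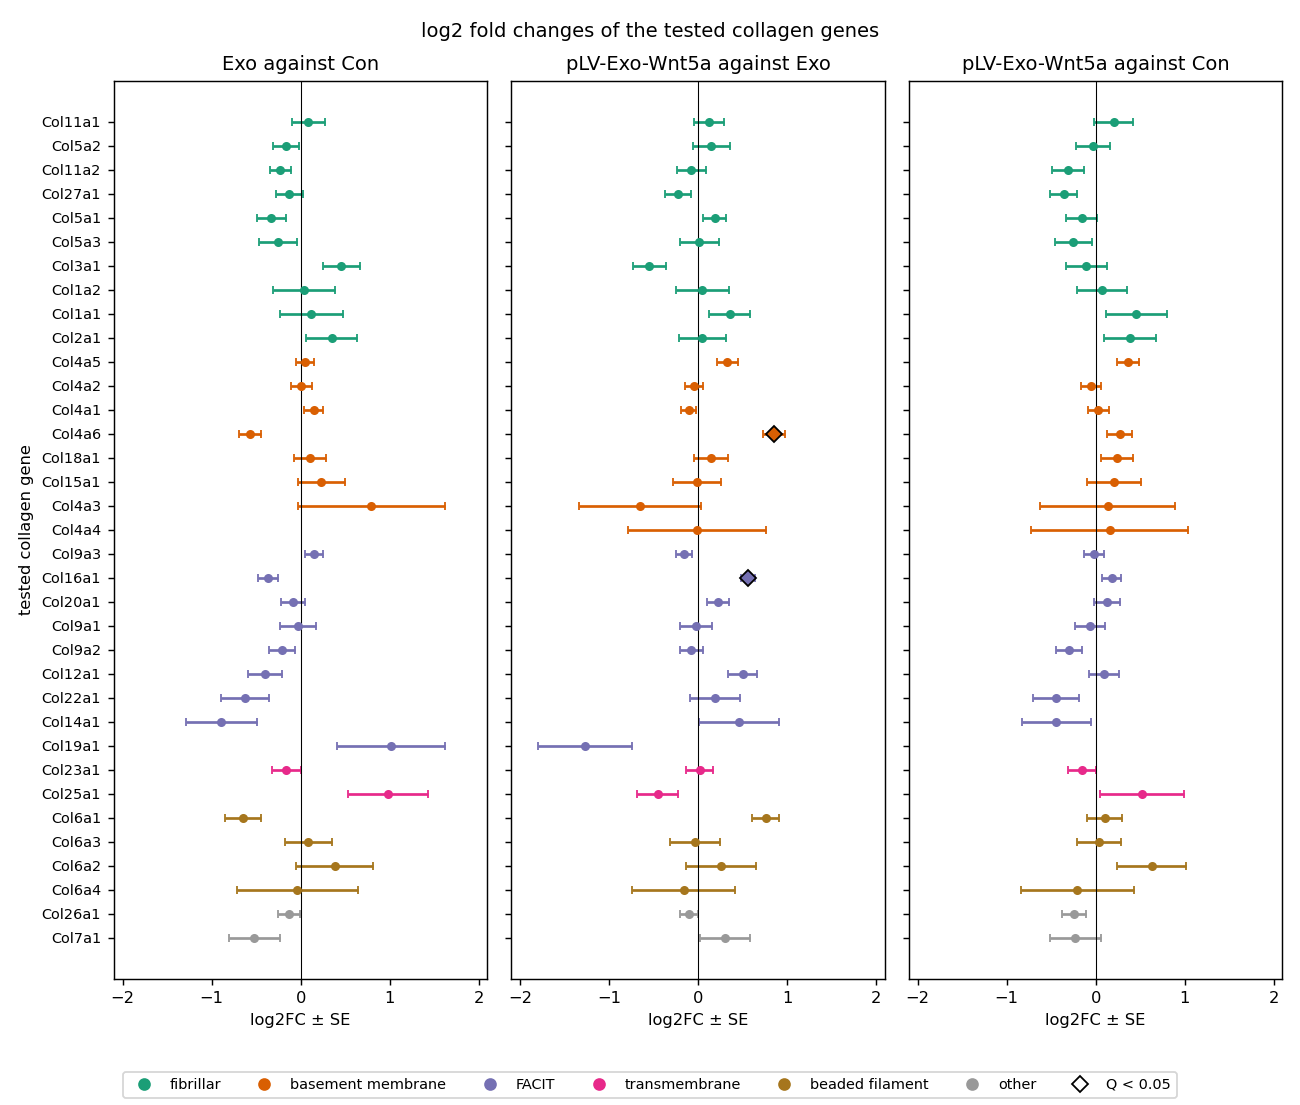
Each point is the log2FC of 1 tested collagen gene with its SE (horizontal axis) in the 3 comparisons, with genes grouped by class and ordered by mean CPM within the class (vertical axis). Diamonds mark Q under 0.05, reached by Col4a6 and Col16a1 between pLV-Exo-Wnt5a and Exo and by no gene in the other comparisons.

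Col4a6 (NCBI gene number 94216) encodes the alpha6 chain of type IV collagen, which is found in a subset of basement membranes together with the alpha5 chain. It measured 12.1, 12.3 and 12.4 CPM in the Con libraries, 8.11, 8.46 and 8.38 CPM in the Exo libraries, and 14.6, 13.3 and 16.7 CPM in the pLV-Exo-Wnt5a libraries. The 3 groups did not overlap: the Exo libraries were lowest and the pLV-Exo-Wnt5a libraries highest. Between pLV-Exo-Wnt5a and Exo it rose 1.80-fold (log2FC 0.85, SE 0.12, Q = 0.0142 from edgeR's quasi-likelihood test). Q rose above 0.05 with Exo replicate 2 left out (0.113) and with pLV-Exo-Wnt5a replicate 1 left out (0.0640), while the log2FC stayed between 0.75 and 0.92 over the 6 fits that left out a library. Against Con, the Exo group had a log2FC of -0.57 (SE 0.13, Q = 0.265 from edgeR, and 0.0238 from DESeq2), and the pLV-Exo-Wnt5a group 0.27 (SE 0.14, Q = 0.636 from edgeR).

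Col4a5 (12830), the partner chain and the highest type IV gene in counts, measured 44.7, 46.2 and 49.7 CPM in the Con libraries, 55.0, 43.8 and 47.7 CPM in the Exo libraries, and 66.0, 49.4 and 66.3 CPM in the pLV-Exo-Wnt5a libraries. The pLV-Exo-Wnt5a replicate 2 lay within the range of the Exo group. The log2FC was 0.33 against Exo (SE 0.12, Q = 0.307, edgeR's quasi-likelihood test), 0.36 against Con (SE 0.12, Q = 0.505) and 0.05 between Exo and Con (SE 0.10, Q = 0.815). Col4a6 gave 0.262 ± 0.0106 counts per Col4a5 count for Con, 0.172 ± 0.0231 for Exo and 0.248 ± 0.0248 for pLV-Exo-Wnt5a (SD, n = 3 each). The ratio was lower in all Exo libraries than in any other, with a p of 0.1 against either group in the 2-sided exact permutation test, the smallest that 3 against 3 libraries allow. Over the 24 such tests made, 8 pairs of chains in 3 comparisons, 7 gave this smallest p, and their Benjamini-Hochberg adjusted p was 0.343.

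The other abundant pair, Col4a1 (12826) and Col4a2 (12827), encodes the chains of the type IV collagen found in nearly all basement membranes. Col4a1 averaged 28.7 ± 2.32, 32.0 ± 1.53 and 29.5 ± 1.74 CPM (SD, n = 3 each) for Con, Exo and pLV-Exo-Wnt5a. Col4a2 measured 33.4 ± 2.31, 33.8 ± 4.01 and 32.4 ± 2.52 CPM in the same order. Neither passed an unadjusted p under 0.05 in any comparison, and the largest absolute log2FC of the pair was 0.15 (SE 0.11, Q = 0.493 from edgeR), for Col4a1 between Exo and Con. The ratio of Col4a1 to Col4a2 counts stayed between 0.847 and 1.05 over the 9 libraries. The Con libraries lay just below the others in it, with the same smallest p of 0.1 in the exact permutation test (adjusted 0.343). The chains Col4a3 and Col4a4 had at most 38 and 16 counts in any library.

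**Figure D3:**
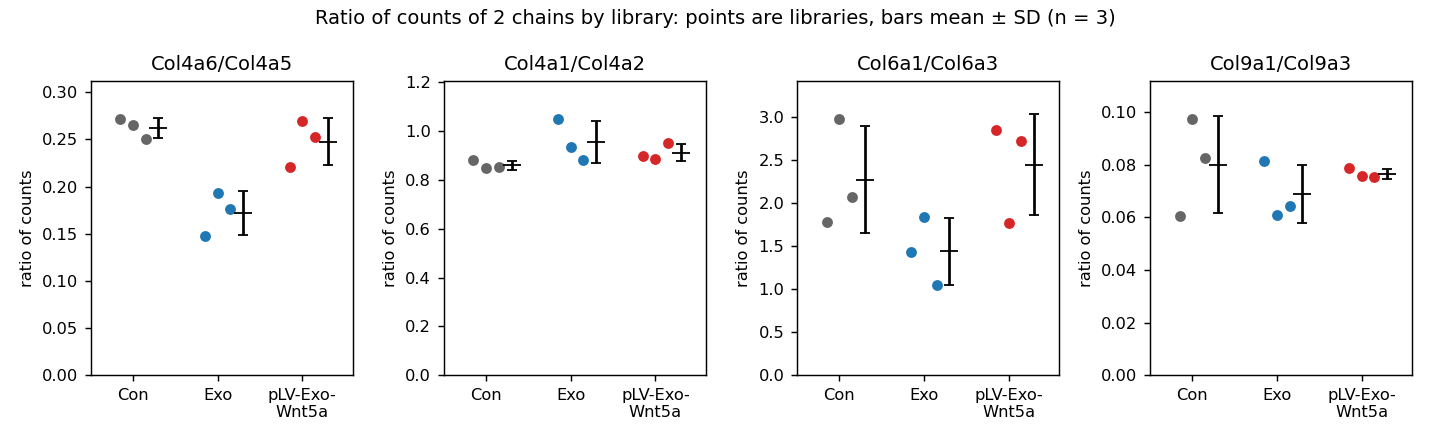
Ratio of the counts of 2 chains (vertical axis, starting at 0) in each library of the 3 groups (horizontal axis), with the mean and SD (n = 3) beside the points. Col4a6/Col4a5 lies between 0.148 and 0.193 in the Exo libraries and above 0.22 in the others, while Col4a1/Col4a2 stays between 0.847 and 1.05.

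The type IV genes lie in head-to-head pairs. The region around the starts is shown because the ratios of the abundant pairs differed in spread. Over the 9 libraries, the SD of the log2 ratio was 0.095 for Col4a1 to Col4a2 and 0.31 for Col4a6 to Col4a5. RefSeq windows of rat genes (GRCr8, 300 bases each, most of them upstream of the start) were matched by symbol and found for 35 of the 44 collagen genes. Col4a2 and Col4a1 start 77 bases apart on opposite strands of chromosome 16, so that their windows overlap by 176 bases. Col4a6 and Col4a5 start 1415 bases apart on opposite strands of chromosome X, with no overlap of the windows. The remaining pair, Col4a4 and Col4a3, starts 413 bases apart on chromosome 9, with windows that overlap by 88 bases. Counts of Col4a3 and Col4a4 were few and uneven, at 1 and 16 in Con replicate 1 and 38 and 9 in Exo replicate 1. Whether the distance between starts bears on the spread of a ratio was not tested. Capitals mark GGGCGG (the core of the Sp1 motif) and CCAAT (the core of the NF-Y motif), searched on both strands and therefore also as CCGCCC and ATTGG, and TATAAA (the TATA box), searched also as TTTATA. These motifs do not overlap each other in the windows printed. GGGCGG was present in 33.1% of all 33469 RefSeq windows, CCAAT in 37.5% and TATAAA in 14.2%. In the same order, 19 (54.3%), 11 (31.4%) and 4 (11.4%) of the 35 collagen windows held them. The collagen set took 1 window per gene, whereas the full set took every window, so the shares are not strictly alike. The windows are those of Col4a6 (chrX:109905895-109906194, minus strand), Col4a5 (chrX:109907109-109907408, plus strand) and Col4a1 (chr16:84885347-84885646, plus strand), each printed 5′ to 3′ on the strand of its gene.
Col4a6: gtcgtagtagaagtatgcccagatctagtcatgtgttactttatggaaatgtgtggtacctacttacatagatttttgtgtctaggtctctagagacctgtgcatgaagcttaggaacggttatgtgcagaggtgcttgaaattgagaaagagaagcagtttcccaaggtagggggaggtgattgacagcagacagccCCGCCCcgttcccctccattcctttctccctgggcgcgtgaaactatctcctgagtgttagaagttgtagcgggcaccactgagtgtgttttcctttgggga
Col4a5: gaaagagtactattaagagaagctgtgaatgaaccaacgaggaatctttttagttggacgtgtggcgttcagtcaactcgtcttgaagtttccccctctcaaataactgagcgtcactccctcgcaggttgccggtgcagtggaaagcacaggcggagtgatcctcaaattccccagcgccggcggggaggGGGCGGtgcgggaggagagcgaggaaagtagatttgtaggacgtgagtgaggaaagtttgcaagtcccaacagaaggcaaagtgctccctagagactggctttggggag
Col4a1: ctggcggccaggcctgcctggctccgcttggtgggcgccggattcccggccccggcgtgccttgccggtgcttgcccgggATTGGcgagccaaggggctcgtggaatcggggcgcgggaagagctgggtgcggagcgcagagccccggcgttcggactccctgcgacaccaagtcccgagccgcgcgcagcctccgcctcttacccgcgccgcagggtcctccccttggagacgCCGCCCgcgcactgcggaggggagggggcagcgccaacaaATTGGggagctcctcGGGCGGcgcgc
The Col4a6 and the Col4a5 windows each held 1 GGGCGG and no CCAAT, the Col4a1 window, which shares 176 bases with that of Col4a2, held 2 of each, and none of the 3 held TATAAA. GC content was 48.3% for Col4a6, 53.3% for Col4a5 and 75.0% for Col4a1. A match describes letters in the window and no binding.

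Col16a1 (107581) encodes the chain of collagen XVI, a FACIT collagen that occurs near basement membranes and in fibrils. It measured 51.9, 50.4 and 42.4 CPM in the Con libraries, 41.6, 35.8 and 35.3 CPM in the Exo libraries, and 55.2, 53.4 and 56.1 CPM in the pLV-Exo-Wnt5a libraries. As with Col4a6, the groups did not overlap, but Con replicate 3 and Exo replicate 1 were close. Between pLV-Exo-Wnt5a and Exo it rose 1.47-fold (log2FC 0.56, SE 0.08, Q = 0.0131 from edgeR's quasi-likelihood test). Q again rose above 0.05 with Exo replicate 2 left out (0.113) and with pLV-Exo-Wnt5a replicate 1 left out (0.0640), with a log2FC between 0.52 and 0.63 over the 6 fits. The log2FC was -0.37 between Exo and Con (SE 0.11, Q = 0.265) and 0.18 between pLV-Exo-Wnt5a and Con (SE 0.11, Q = 0.663). Its window (GRCr8 chr5:147672846-147673145, plus strand, 75.0% GC), shown as that of the second collagen past the threshold and with the same motifs in capitals, held 2 GGGCGG and neither other motif.
Col16a1: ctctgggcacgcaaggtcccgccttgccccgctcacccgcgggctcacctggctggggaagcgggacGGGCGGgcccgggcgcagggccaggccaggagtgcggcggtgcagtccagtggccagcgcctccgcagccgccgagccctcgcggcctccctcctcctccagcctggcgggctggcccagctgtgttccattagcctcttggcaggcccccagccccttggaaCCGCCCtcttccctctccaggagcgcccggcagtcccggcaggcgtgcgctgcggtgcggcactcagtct

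Col6a1 (12833) encodes the alpha1 chain of collagen VI, which forms beaded filaments around cells. It measured 5.68, 9.17 and 7.88 CPM in the Con libraries, 4.60, 4.73 and 5.25 CPM in the Exo libraries, and 9.29, 8.01 and 7.19 CPM in the pLV-Exo-Wnt5a libraries. The Exo libraries were below all others, and the Con and pLV-Exo-Wnt5a libraries overlapped. The log2FC was 0.76 between pLV-Exo-Wnt5a and Exo (SE 0.15, Q = 0.0632 from edgeR, and 0.000864 from DESeq2). With no filter on low counts Q from edgeR was 0.00970, past the threshold. It was not past it in the joint fit of all 9 libraries (0.190), with the replicate number as a block (0.0827) or with any library left out (0.0681 to 0.292). The log2FC was -0.65 between Exo and Con (SE 0.20, Q = 0.265 from edgeR), where the looser call was lost without Con replicate 2 (log2FC -0.49). Its partner chains did not show this order: Col6a3 had a log2FC of -0.04 between pLV-Exo-Wnt5a and Exo (SE 0.28) and of 0.09 between Exo and Con (SE 0.26), and Col6a2 0.26 (SE 0.39) and 0.38 (SE 0.44). The ratio of Col6a1 to Col6a3 counts was 2.28 ± 0.623 for Con, 1.44 ± 0.390 for Exo and 2.45 ± 0.588 for pLV-Exo-Wnt5a (SD, n = 3 each), with p = 0.2 for Exo against either group in the 2-sided exact permutation test (adjusted 0.48).

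**Figure D4:**
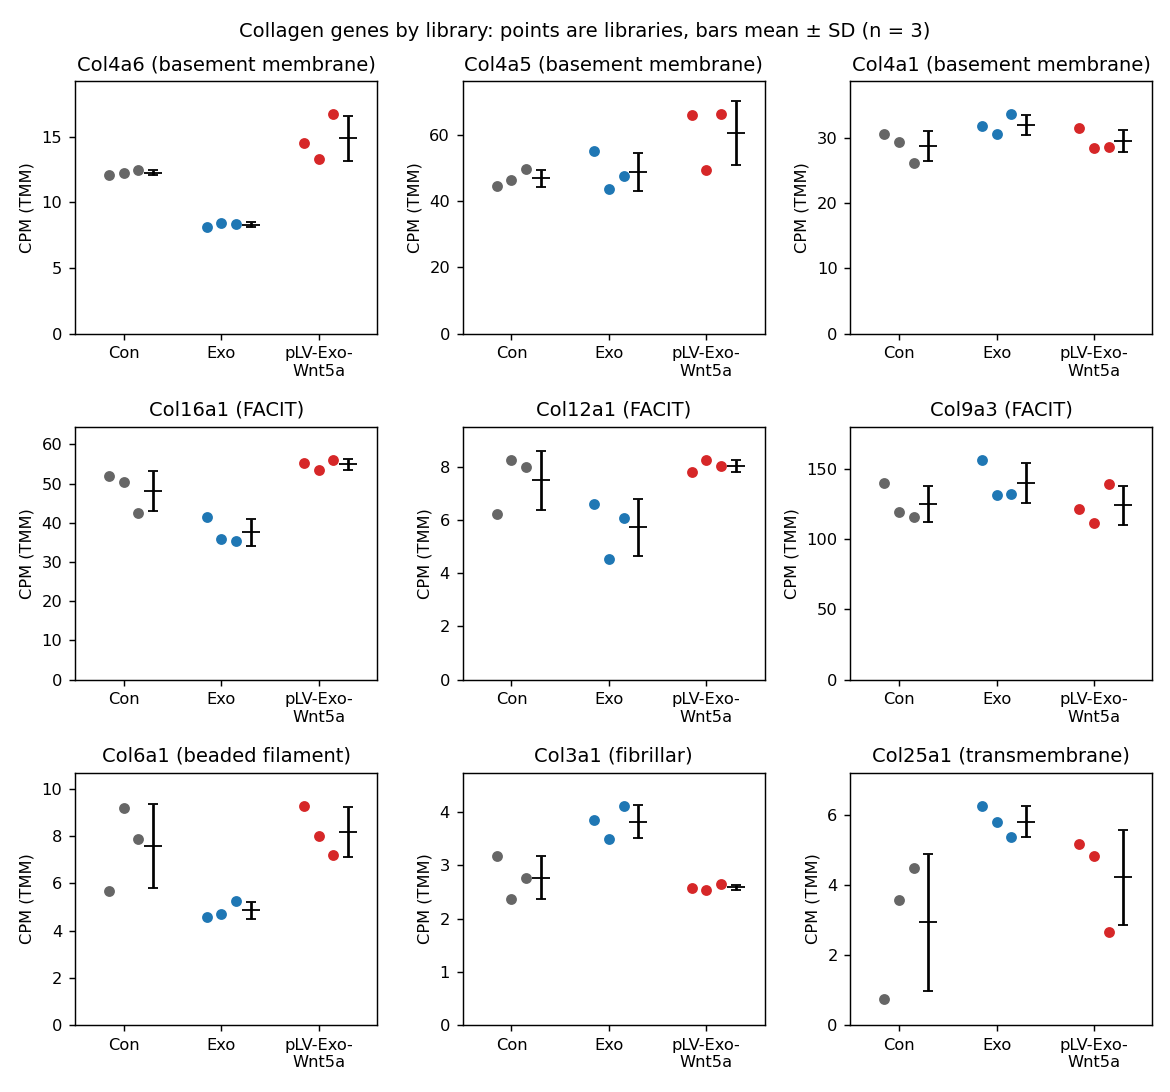
CPM (vertical axis, TMM, starting at 0) of 9 collagen genes in each library of the 3 groups (horizontal axis), with the mean and SD (n = 3) beside the points. Col4a6, Col16a1 and Col6a1 are lowest in the Exo libraries, Col3a1 is highest there, and Col4a1 and Col9a3 overlap between groups.

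Col19a1, a FACIT collagen, was called by the looser rule between pLV-Exo-Wnt5a and Exo, with a log2FC of -1.27 (SE 0.53, Q = 0.377 from edgeR). It had 12, 12 and 16 counts in the Exo libraries, 5, 6 and 5 in the pLV-Exo-Wnt5a libraries, and 2, 8 and 8 in the Con libraries. Only the Exo libraries brought it past the filter on low counts, which favoured a call in this direction, and it was not tested between pLV-Exo-Wnt5a and Con. The call rests on few counts and was lost with any single library left out, with DESeq2 and with no filter on low counts.

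Col3a1 and Col12a1 were singled out after their values were seen. Col3a1 (12825), the fibrillar collagen of soft connective tissue and vessel walls, measured 3.17, 2.36 and 2.77 CPM in the Con libraries, 3.85, 3.49 and 4.12 CPM in the Exo libraries, and 2.57, 2.54 and 2.64 CPM in the pLV-Exo-Wnt5a libraries. The Exo libraries were above all others. Its log2FC was -0.55 between pLV-Exo-Wnt5a and Exo (SE 0.18, Q = 0.264 from edgeR) and 0.46 between Exo and Con (SE 0.21, Q = 0.337). The looser rule called it in the first of these without Exo replicate 2 (-0.61). The collagen I chains were not ordered in this way: Col1a1 was at 3.09, 1.36 and 1.34 CPM in the Con libraries, 2.56, 1.96 and 1.84 CPM in the Exo libraries, and 3.00, 2.41 and 2.64 CPM in the pLV-Exo-Wnt5a libraries. Col12a1 (12816), a FACIT collagen, averaged 7.50 ± 1.11, 5.73 ± 1.07 and 8.03 ± 0.218 CPM (SD, n = 3 each) for Con, Exo and pLV-Exo-Wnt5a. Its log2FC between pLV-Exo-Wnt5a and Exo was 0.50 (SE 0.16, Q = 0.231 from edgeR), and 0.60 without Exo replicate 1, where the looser rule called it.

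Between pLV-Exo-Wnt5a and Exo, the other abundant fibrillar genes and their partner chains had small differences. Col11a1 and Col11a2, chains of collagen XI, had log2FCs of 0.13 (SE 0.17) and -0.08 (SE 0.17), and Col5a1, Col5a2 and Col5a3, the chains of collagen V, of 0.19, 0.15 and 0.01 (SEs 0.13, 0.21 and 0.22). Between Exo and Con, where the Exo libraries of Col5a1 and Col11a2 lay below all Con libraries, their log2FCs were -0.33 (SE 0.16, Q = 0.356 from edgeR) and -0.23 (SE 0.12, Q = 0.373). None of these 5 genes passed an unadjusted p under 0.05 in any comparison. The ratio of Col11a2 to Col11a1 counts was the most variable of the pairs by a small margin. The SD of its log2 was 0.501, against 0.492 for Col6a1 to Col6a3. It ran from 0.400 in pLV-Exo-Wnt5a replicate 3 to 1.49 in Con replicate 1 (1.08 at most without that library), and its rank rests on that library. It was lower in all Exo than in all Con libraries, with p = 0.1 in the exact permutation test (adjusted 0.343), although Exo replicate 2 and Con replicate 2 were nearly equal. Col20a1, a FACIT collagen, had a log2FC of 0.22 between pLV-Exo-Wnt5a and Exo (SE 0.12, Q = 0.527 from edgeR).

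Among the transmembrane genes, Col25a1, whose product is a collagen of neurons, measured 0.752, 3.59 and 4.50 CPM in the Con libraries, 6.28, 5.82 and 5.38 CPM in the Exo libraries, and 5.17, 4.84 and 2.66 CPM in the pLV-Exo-Wnt5a libraries. Con replicate 1 was far below the other libraries. The log2FC between Exo and Con was 0.98 (SE 0.45, Q = 0.341 from edgeR) and was 0.52 without Con replicate 1. The looser rule, missed in this test, called it with no filter on low counts (Q = 0.0922), in the joint fit of all 9 libraries (Q = 0.271), with the replicate number as a block (log2FC 1.21) and without Con replicate 3 (1.41). Between pLV-Exo-Wnt5a and Exo it was -0.45 (SE 0.23, Q = 0.481), and -0.62 without pLV-Exo-Wnt5a replicate 1, where the looser rule called it. Col23a1 differed by at most 0.16 in absolute log2FC in any comparison.

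Between pLV-Exo-Wnt5a and Con, none of the 34 tested genes was a DEG (against 0.0663% of all 15089 genes), passed Q under 0.05 (0.0862%) or was called by the looser rule (2.16%) with edgeR, and DESeq2 also called none (0.172%, 0.524% and 1.94% of all genes by the same 3 rules). At an unadjusted p under 0.05 there were 2 genes, or 5.88%, against 8.35% of all genes. These were Col4a5, higher, and Col27a1, a fibrillar collagen of cartilage, lower (log2FC -0.36, SE 0.15, Q = 0.585 from edgeR). The pLV-Exo-Wnt5a libraries lay above all Con libraries for Col4a6 and Col16a1 (5.88%, against 7.67% of all genes) and below them for Col9a2, Col22a1 and Col27a1 (8.82%, against 9.41%). Without Con replicate 1 the looser rule called 1 gene, Col1a1, higher in pLV-Exo-Wnt5a (log2FC 0.99, Q = 0.281 from edgeR).

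The genes that make, bind or cut collagens were counted by role. Of 15 prolyl and lysyl modification genes, none passed Q under 0.05 or the looser rule in any comparison, but without Con replicate 1 the looser rule called P4ha2 lower in Exo than in Con (log2FC -0.61, Q = 0.283 from edgeR). Their most abundant members were P4hb, a subunit of prolyl 4-hydroxylase, and Ppib, a prolyl isomerase, with log2FCs of 0.03 and -0.01 between pLV-Exo-Wnt5a and Exo (SE 0.05 each). Of 10 folding and export genes none was called either. Serpinh1, the collagen chaperone HSP47, stood at 228, 193 and 185 CPM in the Con libraries, 173, 157 and 162 CPM in the Exo libraries, and 174, 152 and 191 CPM in the pLV-Exo-Wnt5a libraries. The Exo libraries were below the Con libraries (log2FC -0.31, SE 0.09, Q = 0.265 from edgeR, and -0.21 without Con replicate 1). Sparc, a matrix protein that binds collagen, had a log2FC of 0.36 between pLV-Exo-Wnt5a and Exo (SE 0.09, Q = 0.116 from edgeR).

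Of the propeptide cleavage and crosslinking genes, 11 were tested between pLV-Exo-Wnt5a and Exo, and 1 was called by the looser rule (9.09%, against 3.49% of all genes). This was Adamts14, a procollagen N-proteinase, at 0.0775, 0.322 and 0.278 CPM in the Exo libraries and 0.757, 0.547 and 0.678 CPM in the pLV-Exo-Wnt5a libraries (log2FC 1.54, SE 0.53, Q = 0.282 from edgeR). The call was lost without Exo replicate 1 (log2FC 1.14). Adamts14 passed the filter on low counts only through the pLV-Exo-Wnt5a group, where it is high. It had 30, 20 and 28 counts there, against 3, 13 and 11 in the Exo libraries. The call of Adamts14 and this share are therefore no support. Its level in Con replicate 1 was 1.12 CPM, above all other libraries. Bmp1, the C-proteinase, and Adamts3, another N-proteinase, were the most abundant, with log2FCs of 0.21 (SE 0.06, Q = 0.187 from edgeR) and 0.08 (SE 0.11).

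Of 10 tested collagen receptors, Mrc2, an endocytic receptor, was called by the looser rule between pLV-Exo-Wnt5a and Con (10%, against 2.16% of all genes), with a log2FC of -0.72 (SE 0.32, Q = 0.595 from edgeR). The call was lost with RLE scaling, with the stricter filter on low counts, and in 3 of the 6 fits that left out a library: Con replicate 1 (log2FC -0.59), Con replicate 3 (-0.64) and, lowest in size, the second pLV-Exo-Wnt5a library (-0.41). Adgrg1, a receptor for collagen III, stood at 857 ± 81.5, 712 ± 37.0 and 681 ± 26.1 CPM for Con, Exo and pLV-Exo-Wnt5a, and Ddr1, a receptor tyrosine kinase, at 522 ± 73.5, 438 ± 26.7 and 528 ± 34.6 CPM (SD, n = 3 each). Ddr1 had a log2FC of 0.28 between pLV-Exo-Wnt5a and Exo (SE 0.07, Q = 0.111 from edgeR).

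Of 7 tested genes of collagen degradation and its inhibitors, Timp1, an inhibitor of metalloproteinases, was called by the looser rule between pLV-Exo-Wnt5a and Exo and between pLV-Exo-Wnt5a and Con, or 14.3% each, against 3.49% and 2.16% of all genes. It measured 1.14, 0.899 and 1.25 CPM in the Con libraries, 0.749, 0.520 and 0.783 CPM in the Exo libraries, and 2.47, 1.67 and 1.77 CPM in the pLV-Exo-Wnt5a libraries. The pLV-Exo-Wnt5a libraries were above all others. The log2FC was 1.54 against Exo (SE 0.32, Q = 0.0691 from edgeR, and 0.00169 from DESeq2) and 0.84 against Con (SE 0.31, Q = 0.529). The call against Con was lost without Con replicate 2 (log2FC 0.71) or pLV-Exo-Wnt5a replicate 1 (0.64). Mmp14, a membrane collagenase, had a log2FC of -0.26 between Exo and Con (SE 0.07, Q = 0.265), and Timp2 one of 0.21 between pLV-Exo-Wnt5a and Exo (SE 0.07, Q = 0.222).

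Of 16 basement membrane partners, which include laminins, nidogens, perlecan and agrin, 1 passed Q under 0.05 between pLV-Exo-Wnt5a and Exo (6.25%, against 0.436% of all genes in either direction). This was Pxdn, peroxidasin, the enzyme that forms the sulfilimine crosslinks of type IV collagen. It measured 207, 222 and 224 CPM in the Con libraries, 192, 179 and 188 CPM in the Exo libraries, and 229, 245 and 244 CPM in the pLV-Exo-Wnt5a libraries. The groups did not overlap, and Pxdn rose between pLV-Exo-Wnt5a and Exo (log2FC 0.38, SE 0.06, Q = 0.0166 from edgeR's quasi-likelihood test). Q rose above 0.05 without Exo replicate 2 (0.158), pLV-Exo-Wnt5a replicate 1 (0.0510) or pLV-Exo-Wnt5a replicate 3 (0.0568). Of the 16 partners, 13 had a log2FC above 0 in this comparison, with a median of 0.19, against 51.4% of all genes above 0 and a median of 0.00. Between Exo and Con, 4 of the 16 were above 0, with a median of -0.16, against 50.3% of all genes above 0, and none passed Q under 0.05 or the looser rule. Some other roles were placed alike in that comparison, with 4 of 15 prolyl and lysyl modification genes (median -0.16), 3 of 12 propeptide cleavage and crosslinking genes (-0.23) and 2 of 7 degradation genes (-0.16) above 0. Folding and export genes went the other way, with 7 of 10 above 0 (median 0.09). Collagen receptors were even, with 5 of 10 above 0 (-0.03). Agrn, agrin, had log2FCs of 0.13 (SE 0.06) and -0.21 (SE 0.08) in these comparisons.

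**Figure D5:**
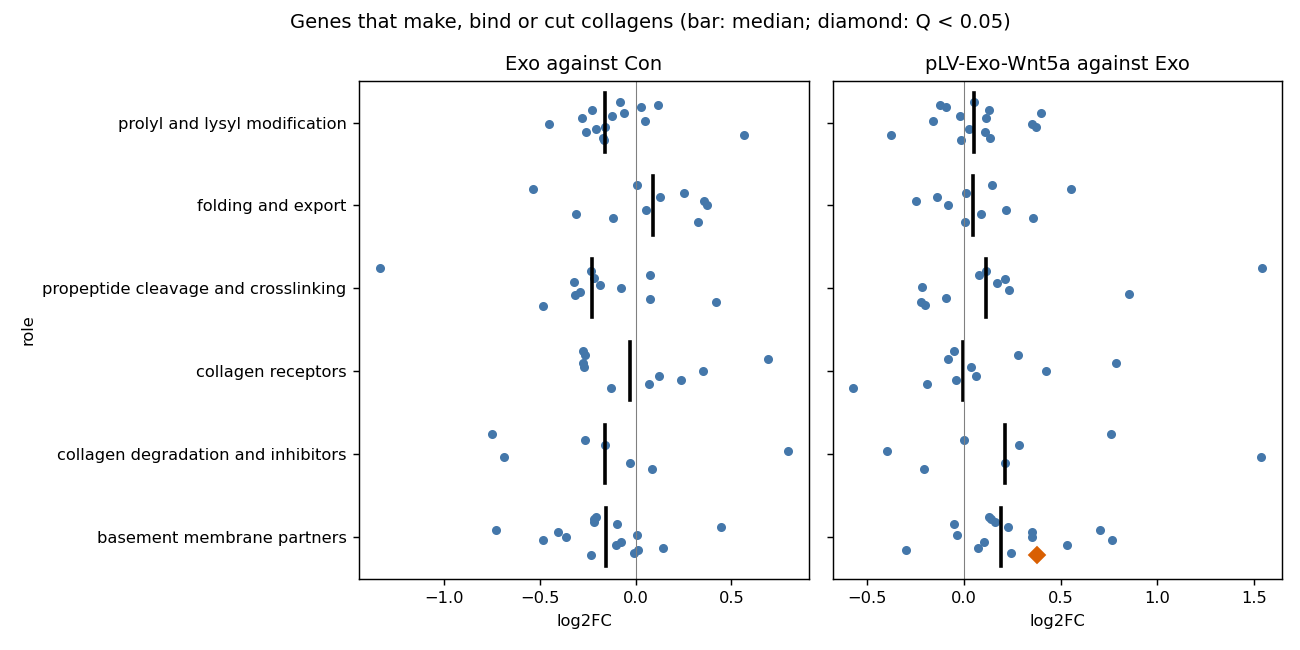
Each point is the log2FC (horizontal axis) of 1 tested gene of a role in collagen biology (vertical axis), on the left between Exo and Con and on the right between pLV-Exo-Wnt5a and Exo, with bars at the median of the role. The single diamond marks Pxdn (Q = 0.0166), and the basement membrane partners have medians of -0.16 and 0.19.

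Markers of several cell types moved in the same comparison as Col4a6, Col16a1 and Pxdn. Between pLV-Exo-Wnt5a and Exo, the astrocyte filament gene Gfap rose (log2FC 0.86, SE 0.05, Q = 3.36e-05 from edgeR), Vim, a gene of the NSC list, rose (0.62, SE 0.11, Q = 0.0389) and the neuroblast gene Dcx fell (-0.60, SE 0.08, Q = 0.0113). Gfap passed Q under 0.05 in all 6 fits that left out a library, Dcx in 4 and Vim in 2, and in the joint fit of 9 libraries Q was 0.312 for Dcx and 0.0724 for Vim. Each of them is the only member of its list past Q under 0.05, and the lists did not move one way. Of the 6 neuronal genes 2 were above 0 and 4 below (median log2FC -0.047), with overlapping sums of 2586 to 3028 CPM for Exo and 2411 to 3122 CPM for pLV-Exo-Wnt5a. Of the 6 NSC genes 4 were above 0 and 2 below (median 0.045). In the astrocyte list, 2 of its 6 genes were above 0 and 4 below, although its sum, which Gfap led, was 3672 to 3757 CPM for Exo and 5400.3 to 5669 CPM for pLV-Exo-Wnt5a. All 3 tested mural and all 4 tested microglia and macrophage markers were above 0 in this comparison and below 0 between Exo and Con. The looser rule called Csf1r higher (log2FC 1.88, Q = 0.0640 from edgeR and 0.000300 from DESeq2, kept in all 6 fits that left out a library), Acta2 higher (1.51, Q = 0.102 and 0.00943) and Itgam higher (1.02, Q = 0.390 and 0.304). The call of Acta2 was also kept in all 6 of those fits. That of Itgam was kept in 3, with a log2FC from 0.69 to 1.56. Between Exo and Con the looser rule called Cx3cr1 (-2.04), Csf1r (-1.59) and Pdgfrb (-0.74) lower, each with Q = 0.265 from edgeR, and with DESeq2 Q was 0.0466 for Csf1r and 0.00486 for Pdgfrb. Cx3cr1 passed the filter on low counts only through the Con group, where it is high. It had 40, 21 and 48 counts there, against 3, 14 and 12 in the Exo libraries. Its call is therefore no support, and DESeq2 gave it no Q. In that comparison the looser rule called the neuronal gene Snap25 higher (0.66, Q = 0.265 from edgeR and 0.0348 from DESeq2), a call lost without Con replicate 1 (0.45). There 5 of the 6 neuronal genes were above 0 (median 0.37), while their sum was 2611 to 2738 CPM for Con, within the range of the Exo libraries. Between pLV-Exo-Wnt5a and Con, 2 of the 3 mural and 3 of the 4 microglia and macrophage markers were above 0. The looser rule there called Cx3cr1 (log2FC -1.40) and Pdgfrb (-0.67) lower, and Acta2 (0.91) and Gfap (0.66) higher. Cx3cr1 and Acta2 kept the call in 3 of the 6 fits that left out a library, and Gfap in 5. Pdgfrb lost it only without Con replicate 1 (-0.53), where Gfap reached Q = 3.79e-05 from edgeR (0.82). The microglia and macrophage list summed to 4.02 to 5.87 CPM for Con, 1.73 to 2.73 CPM for Exo and 4.29 to 5.60 CPM for pLV-Exo-Wnt5a, with Ptprc at 10 counts or fewer in every library. The fibroblast list summed to 79.2 to 93.3 CPM for Exo and 85.0 to 118 CPM for pLV-Exo-Wnt5a, which overlap. The part of these cell types in the collagen values was not tested.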

How the data were processed

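RNA was sequenced in 9 libraries of rat NSCs, 3 for each of Con, Exo and pLV-Exo-Wnt5a. The deposited table holds raw whole-number counts for each gene. According to the study's methods, reads of low quality were dropped and the others aligned with HISAT2. The submitters' processing notes name Bowtie2, RSEM 1.3.1 and DESeq2 1.4.5 without their role. The genome build, annotation, counting and strand setting are not given in the sources used here, and the rows carry mouse gene numbers, so reads shared between related or overlapping genes could be split differently.

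For each comparison, its 6 libraries were filtered with filterByExpr, scaled by TMM and put through edgeR's quasi-likelihood F test (edgeR 4.0.16, R 4.3.3) with no covariate. The standard error was derived from the F statistic, and Q was adjusted over all genes tested. The limit of 3 counts covers counting error only. Ratios of 2 chains were compared by exact permutation. Replicates differed by more than sampling noise (chi-square per degree of freedom 7.33 to 48.4). Libraries with the same replicate number showed no clear common deviation in any pair (r from -0.20 to 0.063), so the numbers were not taken as a pairing. The edgeR and DESeq2 fits were tested on counts simulated for pLV-Exo-Wnt5a against Exo, and the other steps were not.

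Members, classes, role lists and cell type lists were written with earlier results of these data known. Genes named are collagens called by either rule, the 3 with the highest mean CPM per class, their partner chains, and per role the genes called and the 2 with the highest mean CPM. Alternatives were RLE scaling, scaling by total counts, DESeq2 1.42.0, other filters (none, or 10 counts as a minimum throughout), a joint fit of all 9 libraries, no fold limit, the replicate number as a block, and each library left out. For role and marker genes, these fits, and the range of a chain ratio without Con replicate 1, were added after seeing the data. Promoter windows came from RefSeq (GRCr8).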

Additional observations from a re-analysis of the deposited data

How the results depend on the processing

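No collagen gene became a DEG in any comparison with RLE scaling, DESeq2, other filters, all 9 libraries, the block or any library left out. With no fold limit, 2 were called between pLV-Exo-Wnt5a and Exo. The count by the looser rule between Exo and Con was 1 with DESeq2 (against 4.13% of all genes), and ran from 1 to 3 with a library left out. It was 1 without Con replicate 1 and 1 without Exo replicate 1. Between pLV-Exo-Wnt5a and Con that count ran from 0 to 1, with 1 reached without Con replicate 1. Between pLV-Exo-Wnt5a and Exo it ran from 2 to 4 (4 without Exo replicate 1), with Col3a1, Col12a1, Col16a1 and Col25a1 each called in 1 or 2 of those 6 fits. With a library left out, the median log2FC of the collagens ran from -0.12 to 0.025 between Exo and Con (lowest for Con replicate 1 left out, highest for Exo replicate 2), from 0.032 to 0.16 between pLV-Exo-Wnt5a and Exo (highest for Exo replicate 1) and from -0.041 to 0.038 between pLV-Exo-Wnt5a and Con (lowest for Con replicate 3). The count at Q under 0.05 between pLV-Exo-Wnt5a and Exo was 0 if Exo replicate 2 or pLV-Exo-Wnt5a replicate 1 was left out. DESeq2 gave 3 there, adding Col6a1 (against 2.82% of all genes with DESeq2), which edgeR with no filter on low counts also put past it (Q = 0.00970), and 1 between Exo and Con, Col4a6 (against 1.37%). With the replicate number as a block, Col4a6 had a log2FC of 0.84 (Q = 0.0210) and Col16a1 of 0.56 (Q = 0.0145) between pLV-Exo-Wnt5a and Exo, and the looser rule called 2 genes there and 2 between Exo and Con, where Col14a1 and Col22a1 were lost and Col25a1 gained. In the first comparison Col19a1 was lost. Scaling by total counts moved the summed collagen CPM of each group by less than 1 SD. The cause of these shifts was not tested. Over 71 values of named collagens and 850 refits, no called value changed sign. The 38 sign changes were all in values that no rule called, 29 calls were lost and 8 gained. A called gene was followed only by the rule that called it in the main fit. Gains by another rule, such as Q under 0.05 for Col6a1 with DESeq2, are therefore not among the 8. Calls of genes at a few counts, such as Col19a1, rest on few reads, and depth was not varied.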
